A study of Homo sapiens with 20 samples.

Results

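The steroid hormone receptors studied here are 5 genes: NR3C1, which encodes the glucocorticoid receptor, NR3C2, the mineralocorticoid receptor, PGR, the progesterone receptor, and ESR1 and ESR2, the estrogen receptors alpha and beta. They were chosen by name, from the 19775 genes that the arrays read through probe sets of exactly 1 gene. Together they have 23 of the 41091 such probe sets: 9 for ESR1, 6 for ESR2, 5 for NR3C1, 2 for PGR and 1 for NR3C2. The brightest probe set over all arrays stood for each gene, and every other one served as a check. The receptor for androgens is not analysed here.

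RNA came from LNCaP, a human prostate cancer line, and C42B, its castration-resistant derivative, in 20 arrays. In C42B, 3 arrays of cells given siLSD1, an siRNA against the histone demethylase LSD1 (gene KDM1A), stand against 3 of cells given the control siNTC. Transfection took 6 h, and growth for 96 h followed in 10% CSS, serum stripped of steroids with charcoal. In LNCaP the same siRNA groups have 3 arrays each, with 50 nM siRNA and 96 h in 10% fetal bovine serum (FBS), and each array holds RNA pooled from a pair of wells. For the androgen comparison, 72 h of growth of C42B in 10% CSS preceded 16 h of exposure to dihydrotestosterone at 100 nM (DHT, 4 arrays) or to ethanol as vehicle (4 arrays). The labels do not say how many siRNA sequences were used, and with 1 siLSD1 reagent label per line, effects of its sequence and of lower LSD1 cannot be told apart. The LNCaP samples are labelled biological replicates, while the C42B samples are described only as coming from separate wells (6 wells for 3 replicates in the siRNA experiment), so for C42B p-values measure the spread between these wells, which may be technical.

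Steroid hormone receptors are transcription factors that a hormone switches on. Without ligand they are held by chaperones of the HSP90 machinery. With ligand they bind DNA, the glucocorticoid, mineralocorticoid and progesterone receptors at much the same inverted repeat as the androgen receptor and the estrogen receptors at another, and recruit coactivators or corepressors. In the prostate the glucocorticoid receptor is known for sharing target genes with the androgen receptor, and PGR is best known as a gene that estrogen induces in breast and uterus.

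PGR and NR3C2 are the members whose level moved, so the DNA just before their start is shown. Both sequences are from RefSeq (GRCh38.p14), minus strand, 5′ to 3′, and cover the 250 bases before the start that lies farthest upstream among the 3 starts listed for PGR and the 4 for NR3C2. The PGR stretch is chr11:101129814-101130063 and the NR3C2 stretch is chr4:148445323-148445572. Capitals mark GC boxes (GGGCGG, either strand).
PGR: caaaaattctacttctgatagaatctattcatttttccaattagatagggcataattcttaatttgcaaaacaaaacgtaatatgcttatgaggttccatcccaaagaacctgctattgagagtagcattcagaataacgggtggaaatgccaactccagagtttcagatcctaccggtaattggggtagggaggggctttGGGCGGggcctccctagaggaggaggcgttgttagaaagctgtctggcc
NR3C2: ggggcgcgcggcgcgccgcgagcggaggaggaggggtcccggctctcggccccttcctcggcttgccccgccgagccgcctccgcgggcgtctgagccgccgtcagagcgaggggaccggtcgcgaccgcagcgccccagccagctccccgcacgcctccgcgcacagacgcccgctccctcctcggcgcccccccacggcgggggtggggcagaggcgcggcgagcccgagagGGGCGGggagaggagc
The stretches differ in composition, with 43.6% G and C and 5 CpG dinucleotides before PGR against 81.6% and 40 before NR3C2. Each holds 1 GC box, as do at least 1 in 42.6% of 35116 such windows of the table. Neither holds TGTTCT, an arm of the element shared by the androgen, glucocorticoid, mineralocorticoid and progesterone receptors, on either strand (12.4% of windows do), nor the full inverted repeat of it with a spacer of 3 bases (0.00285%). The estrogen receptor element, TGACC preceded by its inverted copy at the same spacing (0.0399%), is not in them either. This says only that these letters are not in these windows.

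The checks of the arrays were as follows. KDM1A fell by 81.1% with siLSD1 in C42B and by 85.4% in LNCaP. All 9 measured luminal prostate markers had a log2 mean of 6 or more in every group. With DHT all of them passed, 5 higher and 4 lower, where 32.7% of all genes, at any level, passed. The androgen target KLK2 rose by 5.19 ± 0.06. The medians of the arrays separated by experiment (78.4 to 81.2, 84.1 to 86.1 and 63.2 to 65.1 in intensity units), so levels were compared only within an experiment, and ranks within an array are given where experiments stand side by side. A mean log2 intensity of at least 6 is called bright below, and it is not a detection call: 7 or 8 of 14 stromal, endothelial and leukocyte markers were also bright in each group. Actin control probe sets at the 3′ and 5′ ends, whose difference rises as RNA degrades, gave differences that overlapped between the groups of each experiment. The number of arrays limits the precision.

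**Figure D1:**
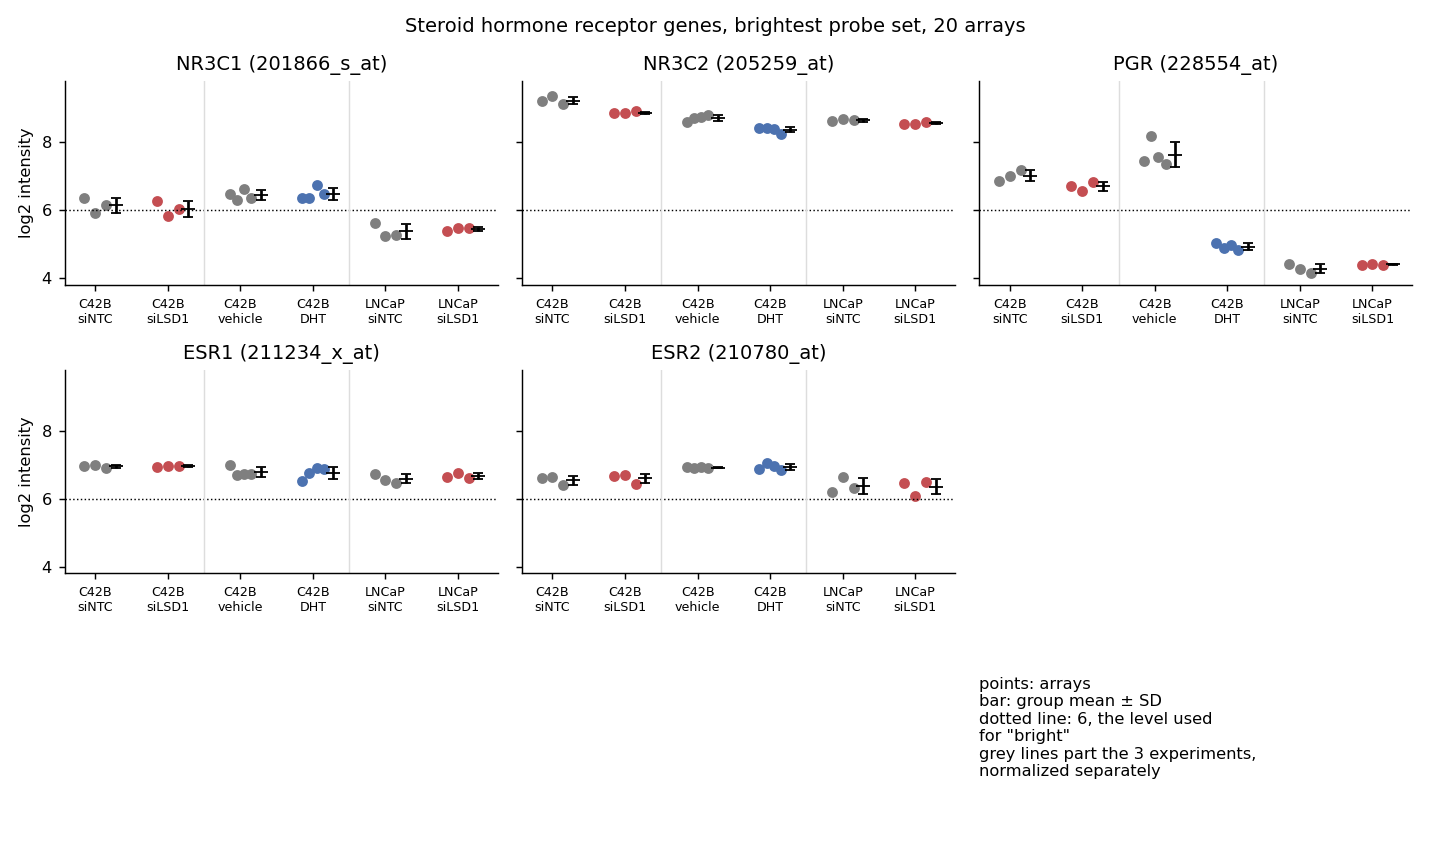
Log2 intensity (y axis) of the brightest probe set of each receptor gene on every array, by group (x axis), with the group mean ± SD beside the points and a dotted line at 6. PGR drops from 7.36 or more with vehicle to 5.04 or less with DHT, NR3C2 shifts by less, and the groups of ESR1, ESR2 and NR3C1 overlap within each experiment.

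The progesterone receptor gene responded to androgen more than any other member. With vehicle, PGR read 7.44, 8.17, 7.55 and 7.36 on the log2 scale in the 4 arrays (probe set 228554_at). With DHT it read 5.04, 4.87, 4.98 and 4.82. The groups did not overlap, and 2.32 log2 units lay between the lowest vehicle array and the highest DHT array. In linear units the probe set went from a range of 164 to 289 down to 28.2 to 32.8. The mean was 7.63 ± 0.37 with vehicle and 4.93 ± 0.10 with DHT (SD, n = 4 each), a log2 fold change of −2.70 ± 0.16 (limma SE, adjusted p = 1.2e-06), or 6.51-fold lower. Since the DHT mean is dim, the fall counted down to 6 is at least 1.63. Only 9 of the 19775 genes had a more negative log2 fold change in this comparison. The two-sided exact permutation p was 0.029, the smallest that 4 arrays against 4 allow. Less PGR RNA per cell and fewer cells that hold it cannot be told apart in such bulk samples.

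The second PGR probe set, 208305_at, moved the same way from a dim level. It read 4.46, 4.33, 4.57 and 4.75 with vehicle and 3.32, 3.26, 3.77 and 3.47 with DHT, again without overlap. Its log2 fold change was −1.07 ± 0.12 (limma adjusted p = 1.1e-04 over all probe sets). With the mean of both probe sets PGR changed by −1.89.

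With siLSD1 in C42B, PGR read 6.71, 6.57 and 6.84, against 6.86, 7.01 and 7.17 with siNTC. The groups did not overlap, but the gap between them was only 0.023. The log2 fold change was −0.31 ± 0.10 (limma adjusted p = 0.069), which did not pass, with a 95% interval of −0.53 to −0.080. The call turns on the settings of the fit: it passed with dim genes left out and with a trended, robust variance (limma adjusted p = 0.041 in both), and without any single array it did not pass (adjusted p of 0.052 to 0.20). The dim probe set 208305_at gave −0.24 (adjusted p = 0.23), with arrays from 4.40 to 4.86 with siLSD1 and from 4.81 to 4.99 with siNTC.

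In LNCaP, grown in whole serum, PGR was dim on all 6 arrays. It read 4.39, 4.41 and 4.39 with siLSD1 and 4.40, 4.27 and 4.14 with siNTC. The groups overlapped and differed by 0.13 ± 0.07 (limma adjusted p = 0.26). Within an array the probe set stood at the 19.5th percentile of all probe sets on average with siNTC in LNCaP. In the steroid-depleted C42B groups it stood at the 60.5th with siNTC and the 67.6th with vehicle, and at the 24.6th with DHT. Line, serum and experiment differ together between these groups and cannot be told apart.

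NR3C2, the mineralocorticoid receptor gene, was bright in every group and fell in both C42B experiments. With DHT it read 8.41, 8.42, 8.38 and 8.25, and with vehicle 8.59, 8.71, 8.74 and 8.79. The groups did not overlap, with a gap of 0.17. The mean went from 8.71 ± 0.08 to 8.37 ± 0.08 (SD, n = 4 each), a log2 fold change of −0.34 ± 0.06 (limma adjusted p = 0.0013, exact permutation p = 0.029), or 1.27-fold lower.

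With siLSD1 in C42B, NR3C2 read 8.85, 8.85 and 8.90, below the 9.20, 9.35 and 9.12 with siNTC. The gap between the groups was 0.22. The mean fell from 9.23 ± 0.11 to 8.87 ± 0.03 (SD, n = 3 each), a log2 fold change of −0.36 ± 0.07 (limma adjusted p = 0.010), or 1.28-fold lower. The exact permutation p was 0.1, the smallest that 3 arrays against 3 allow. This fall and that with DHT come from separate arrays with separate controls, and both stayed past the threshold without any single array. NR3C2 has 1 probe set, so no other probe set checks it.

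In LNCaP the NR3C2 arrays read 8.55, 8.54 and 8.59 with siLSD1 and 8.61, 8.68 and 8.64 with siNTC. The siLSD1 arrays were all lower, by a gap of 0.019, but the difference of −0.083 ± 0.055 did not pass (limma adjusted p = 0.34, 95% interval −0.21 to 0.043).

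**Figure D2:**
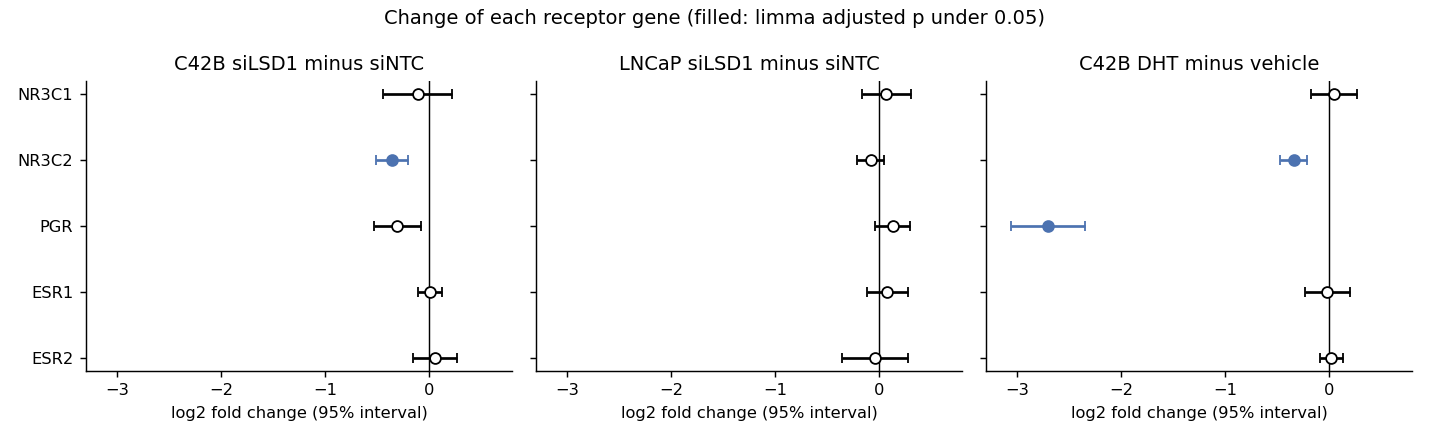
Log2 fold change (x axis) of each receptor gene (y axis) in the 3 comparisons, with 95% intervals from limma; filled points have an adjusted p under 0.05. NR3C2 passes in both C42B comparisons at −0.36 and −0.34, PGR passes with DHT at −2.70, and the intervals of NR3C1, ESR1 and ESR2 span 0 in all 3.

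NR3C1, the glucocorticoid receptor gene, gave a reading that depends on the probe set. Its brightest one, 201866_s_at, lay near 6: with vehicle it read 6.47, 6.31, 6.63 and 6.36, and with DHT 6.37, 6.36, 6.74 and 6.49. The groups overlapped, and the difference was 0.045 ± 0.098 (limma adjusted p = 0.77, 95% interval −0.18 to 0.27). In C42B with siLSD1 it read 6.27, 5.81 and 6.03, and with siNTC 6.36, 5.92 and 6.15. These overlapped as well, at −0.11 ± 0.14 (adjusted p = 0.67, 95% interval −0.44 to 0.22). The dimmer probe sets did not pass there either. 216321_s_at gave −0.27 ± 0.08 and 232431_at −0.16 ± 0.07 (limma adjusted p = 0.052 and 0.18 over all probe sets), while 201865_x_at and 211671_s_at gave 0.0053 and 0.058.

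In LNCaP the brightest NR3C1 probe set was dim and read 5.38, 5.47 and 5.47 with siLSD1 and 5.62, 5.24 and 5.25 with siNTC. The groups overlapped through siNTC replicate 1, and the difference of 0.070 ± 0.10 did not pass (limma adjusted p = 0.69). Without that array it was 0.20 and just passed (adjusted p = 0.049). A pair of dimmer probe sets of the gene passed higher. 201865_x_at read 5.31, 5.33 and 5.48 with siLSD1 and 5.05, 4.85 and 4.92 with siNTC, a log2 difference of 0.43 ± 0.08 (adjusted p = 0.0049 over all probe sets). 211671_s_at read 4.58, 4.85 and 4.71 against 4.43, 4.31 and 4.31, a difference of 0.36 ± 0.08 (adjusted p = 0.014). The remaining 2, 216321_s_at and 232431_at, did not pass in LNCaP, so the gene's probe sets do not give 1 answer there.

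ESR1, which encodes estrogen receptor alpha, did not pass in any comparison. Its brightest probe set, 211234_x_at, had means of 6.59 to 6.96 over the groups. With vehicle the lowest, median and highest arrays read 6.69, 6.72 and 6.99, and with DHT 6.51, 6.82 and 6.89. The log2 differences were −0.017 ± 0.098 with DHT, 0.0090 ± 0.050 with siLSD1 in C42B and 0.080 ± 0.084 with siLSD1 in LNCaP (limma adjusted p of 0.91, 0.93 and 0.56). The 95% intervals ran from −0.24 to 0.20 with DHT, from −0.11 to 0.13 in C42B and from −0.11 to 0.27 in LNCaP. With DHT every other ESR1 probe set differed upward instead, by 0.011 (215552_s_at) to 0.26 (217190_x_at), and none passed. Among them, 211235_s_at gave 0.19 ± 0.08 (limma adjusted p = 0.13 over all probe sets).

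The 9 ESR1 probe sets gave very different readings. 211234_x_at was barely brighter than 211235_s_at (means over 20 arrays of 6.78 each). By contrast, 205225_at, annotated to a RefSeq mRNA of the gene, lay between 3.18 and 3.81 on all arrays and never above the 11.7th percentile of an array. 5 of the 9 were bright in at least 1 group and 4 were not. The suffix x_at is Affymetrix's mark for probe sets that may also bind other transcripts, and 4 of the 9 carry it. 215551_at stood on average at the 54.6th to 60.6th percentile of an array in the siRNA groups and at the 18.0th to 18.3rd in the DHT and vehicle groups, a gap between experiments that was not tested. How much of any of these readings is ESR1 RNA was not tested.

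ESR2, which encodes estrogen receptor beta, did not pass in any comparison either. Its brightest probe set, 210780_at, read 6.89 to 6.94 with vehicle and 6.85 to 7.04 with DHT, overlapping. The log2 difference was 0.021 ± 0.049 (limma adjusted p = 0.78, 95% interval −0.090 to 0.13). With siLSD1 it differed by 0.056 ± 0.091 in C42B (adjusted p = 0.74, 95% interval −0.16 to 0.27) and by −0.039 ± 0.14 in LNCaP (adjusted p = 0.88, 95% interval −0.36 to 0.28). The other 5 probe sets of ESR2 were dim in every group, and none of them passed in any comparison.

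**Figure D3:**
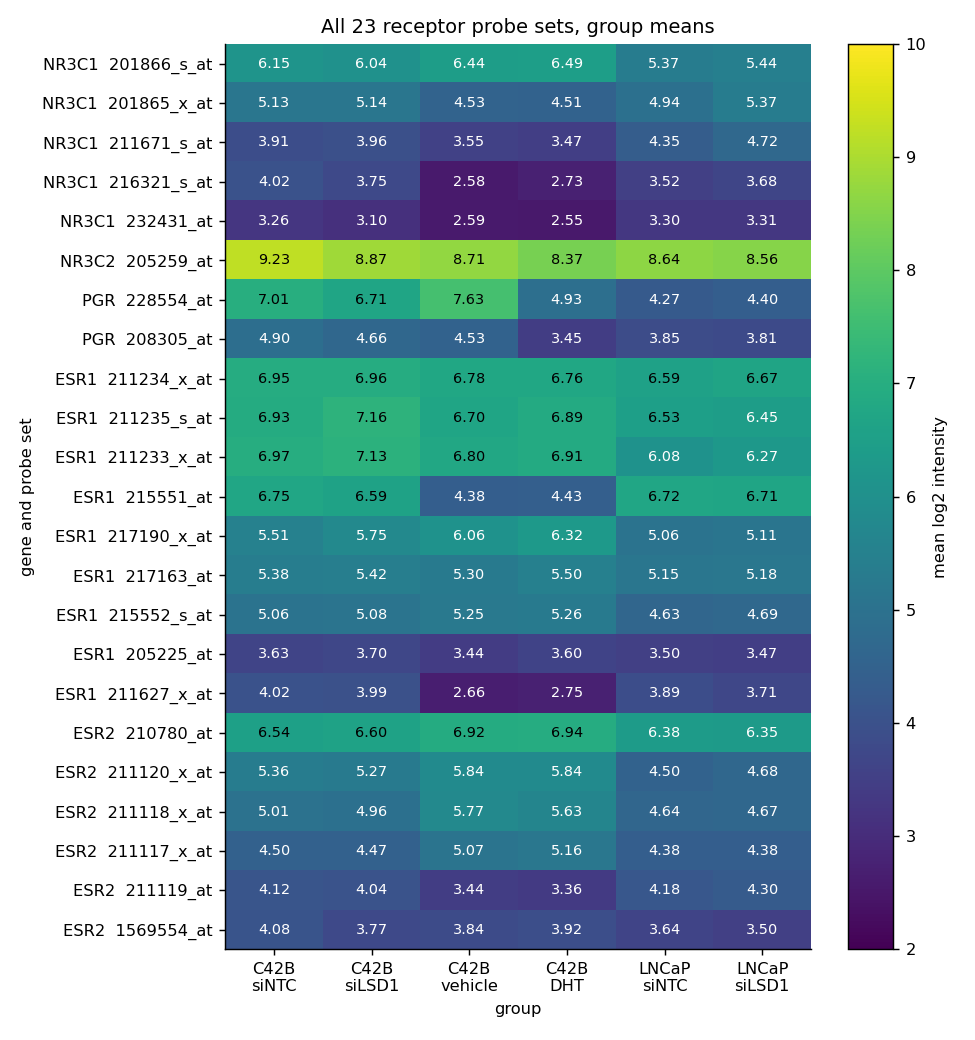
Mean log2 intensity of each of the 23 receptor probe sets (rows, grouped by gene and ordered by brightness) in the 6 groups (columns). NR3C2 is bright throughout, PGR is bright in 3 of the C42B groups, and ESR1, ESR2 and NR3C1 hold bright and dim probe sets side by side.

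Counted together, 2 of the 5 receptor genes passed with DHT, PGR and NR3C2, where 32.7% of all genes passed. With siLSD1 in C42B 1 passed, NR3C2, against 18.0% of all genes. In LNCaP none passed, against 25.9%; none of the 5 had an unadjusted p under 0.05 there either. Groups without overlap occurred for 2 of 5 members with DHT (34.6% of all genes), for 2 with siLSD1 in C42B (36.3%) and for 1 with siLSD1 in LNCaP (40.1%). These counts of so few genes lie near the shares over all genes. Of the 23 probe sets 3 passed with DHT (27.0% of all probe sets), 1 with siLSD1 in C42B (12.7%) and 2 with siLSD1 in LNCaP (21.9%).

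**Figure D4:**
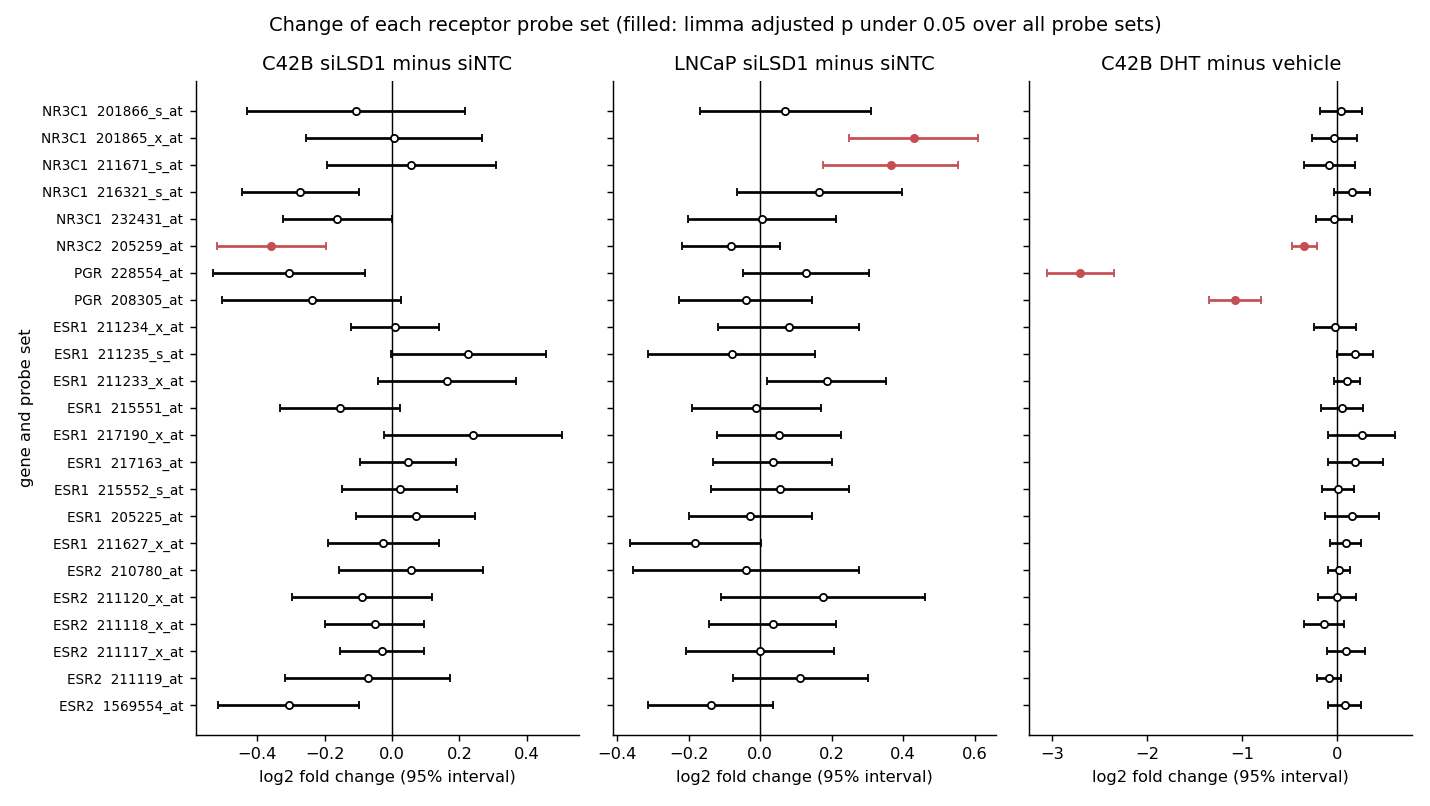
Log2 fold change (x axis, with its own scale in each panel) of the 23 receptor probe sets (y axis) in the 3 comparisons, with 95% intervals; filled points have a limma adjusted p under 0.05 over all probe sets. Both PGR probe sets fall with DHT, the NR3C2 probe set falls in both C42B comparisons, and 2 dim NR3C1 probe sets are higher with siLSD1 in LNCaP.

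The effect of siLSD1 was compared between the lines over the 12 siRNA arrays, in medium that also differed between them. For PGR the effect was −0.31 in C42B and 0.13 in LNCaP, a difference of −0.43 ± 0.13 (limma adjusted p = 0.046). Over all genes 11.6% passed this test. PGR was dim in LNCaP. The call held only without siLSD1 replicate 3 or siNTC replicate 1 of C42B or siNTC replicate 1 of LNCaP, and leaving out any of the other 9 arrays ended it (adjusted p of 0.022 to 0.11 over the 12). For NR3C2 the effects were −0.36 and −0.083, a difference of −0.28 ± 0.08 that did not pass (adjusted p = 0.052). It passed under 4 other settings and without siNTC replicate 3 of C42B (adjusted p of 0.029 to 0.043). It did not pass with median centring (0.13), with the replicate number as a block, with every probe set tested (0.079) or without any of the other 11 arrays (0.071 to 0.12). For the brightest probe sets of NR3C1, ESR1 and ESR2 the adjusted p was 0.62 to 0.80. The dim NR3C1 probe sets 216321_s_at and 201865_x_at differed by −0.44 and −0.42 (limma adjusted p = 0.062 and 0.097 over all probe sets). All NR3C1 probe sets gave a negative difference, and none passed. With every probe set tested none of the 23 passed, against 8.44% of all probe sets; the 228554_at row of PGR then had an adjusted p of 0.058.

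Genes with a profile like that of a receptor were found by Pearson correlation over the 20 arrays, each centred on the mean of its experiment, among 14716 other genes bright in at least 1 group. The arrays of a group share their treatment, so for PGR and NR3C2 r mostly reflects the changes above. For NR3C1, ESR1 and ESR2, which did not pass, r mostly reflects scatter between arrays of a group. Each r was picked from the ends of the ranking of 14716 genes and is given as a description. How high such an r runs by chance was not tested. For PGR the closest were ATP8A1, a phospholipid flippase (r = 0.98), the chemokine receptor ACKR3 (0.98) and the potassium channel subunit KCNS3 (0.98), whose log2 fold changes with DHT were −2.56, −3.14 and −1.17. The most opposed was THBS1, thrombospondin (r = −0.99), which rose by 2.50. For NR3C2 they were the orphan nuclear receptor NR2C1 (r = 0.93), the potassium channel KCNQ5 (0.92) and the mitochondrial polymerase subunit POLG2 (0.92). These 3 fell in both C42B comparisons, KCNQ5 by 0.90 with DHT and 0.62 with siLSD1. The most opposed to NR3C2 was HSD17B4 (r = −0.91), a peroxisomal enzyme that also oxidizes estradiol. HSD17B4 rose by 0.50 with DHT and by 0.47 and 0.20 with siLSD1 in C42B and LNCaP. NR3C1, ESR1 and ESR2 correlated best at 0.84 (CEACAM4, with LINC00689 and KCNN1 at 0.81), 0.75 (CACNB1, with LOC105370943 at 0.74 and CHRNA3 at 0.69) and 0.73 (GPATCH3, with NAT8B and TEX26-AS1 at 0.69). None of those 9 genes passed in any of the 3 comparisons. Their most opposed genes were IL12RB1 (r = −0.78), ARPC2 (−0.81) and OBP2B (−0.72).

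Around the receptors, the enzymes that make or remove their ligands were read next. Of 15 measured, 3 were higher and 2 lower with DHT, 1 and 1 with siLSD1 in C42B, and 3 and 1 in LNCaP. Their medians were 0.059, −0.0016 and 0.13, beside 0.013, −0.017 and 0.011 over all genes. The shares that passed were 33.3%, 13.3% and 26.7%, beside 32.7%, 18.0% and 25.9% of all genes, and these shares are given in the same order (DHT, siLSD1 in C42B, siLSD1 in LNCaP) for each list that follows. The shares of all genes include genes dim in every group, so for lists rich in bright genes they are not a like-for-like background. HSD11B2 inactivates cortisol and so guards the mineralocorticoid receptor. It fell by 0.48 ± 0.05 with DHT (limma adjusted p = 8.2e-05) and rose by 0.56 ± 0.07 with siLSD1 in LNCaP (adjusted p = 6.1e-04). In C42B its change with siLSD1 was 0.13 ± 0.06 (adjusted p = 0.21), and the difference between the lines passed (−0.43 ± 0.09, adjusted p = 0.011), as did that of HSD17B4 (0.27 ± 0.07, adjusted p = 0.033). CYP11A1, which starts steroid synthesis from cholesterol, rose from a dim mean by at least 1.25 with DHT and fell by 0.32 ± 0.07 with siLSD1 in C42B (adjusted p = 0.022).

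Membrane receptors of steroids numbered 6 measured. With DHT 2 were lower and none higher (median −0.24). With siLSD1, 2 were higher and 1 lower in C42B (median 0.012), and 2 were higher and none lower in LNCaP (median 0.075). The shares were 33.3%, 50.0% and 33.3% of these few genes, beside 32.7%, 18.0% and 25.9% of all genes. GPER1, a G protein-coupled receptor for estrogen, fell by 1.01 ± 0.05 with DHT (limma adjusted p = 3.3e-07) and by 0.48 ± 0.05 with siLSD1 in C42B (adjusted p = 0.0013). In LNCaP its change was −0.050 ± 0.080, and the difference between the lines passed (−0.43 ± 0.10, adjusted p = 0.012). PGRMC2, a membrane progesterone receptor component, fell by 0.36 ± 0.05 with DHT and rose with siLSD1 by 0.23 ± 0.06 in C42B and 0.38 ± 0.07 in LNCaP. PAQR6, a membrane progestin receptor, rose with siLSD1 by 0.39 ± 0.06 in C42B and 0.74 ± 0.09 in LNCaP.

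Chaperones and co-chaperones of the receptors numbered 16 measured. With DHT 5 were higher and 1 lower (median 0.076), with siLSD1 in C42B none passed (median −0.075), and in LNCaP 1 was higher and 5 lower (median −0.13). The shares were 37.5%, 0% and 37.5%, beside 32.7%, 18.0% and 25.9% of all genes. All 16 were bright in at least 1 group of each comparison, while all genes include dim ones. FKBP5, an HSP90 co-chaperone that lowers the glucocorticoid receptor's affinity and is itself induced by these receptors, rose by 3.12 ± 0.04 with DHT (limma adjusted p = 1.3e-10). With siLSD1 it fell by 0.37 ± 0.06 in LNCaP and differed by 0.092 ± 0.047 in C42B (adjusted p = 0.23), and the difference between the lines was 0.46 ± 0.07 (adjusted p = 0.0011). FKBPL rose by 0.27 ± 0.06 and the cyclophilin PPID fell by 0.22 ± 0.04 with DHT. The HSP70 relative HSPA4 and the co-chaperone DNAJA1 fell by 0.44 ± 0.08 and 0.30 ± 0.05 with siLSD1 in LNCaP.

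Coactivators and corepressors moved in both directions: 3 higher and 4 lower of 18 with DHT (median −0.051), 5 and 2 with siLSD1 in C42B (median 0.0087), and 5 and 5 in LNCaP (median −0.042). The shares were 38.9%, 38.9% and 55.6%, beside 32.7%, 18.0% and 25.9% of all genes. All 18 were bright in at least 1 group of each comparison, while all genes include dim ones. Whether brightness accounts for the higher shares was not tested. NCOA7 and NCOA2, coactivators of these receptors, fell with DHT by 1.43 ± 0.06 and 0.84 ± 0.05. With siLSD1 they rose, by 0.38 ± 0.07 and 0.30 ± 0.07 in C42B and by 0.76 ± 0.09 and 0.70 ± 0.07 in LNCaP. The acetyltransferase KAT2B rose with siLSD1 by 0.42 ± 0.07 in C42B and 0.61 ± 0.10 in LNCaP, and the corepressor subunit TBL1X rose by 0.32 ± 0.04 with DHT. Between the lines the siLSD1 effect differed for LCOR (0.41 ± 0.12, limma adjusted p = 0.039), NCOA2 (−0.40 ± 0.10, adjusted p = 0.017) and NCOA4 (−0.30 ± 0.07, adjusted p = 0.018).

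Of 22 measured glucocorticoid and mineralocorticoid responsive genes, 10 rose and 6 fell with DHT (median 0.15), 7 rose and 1 fell with siLSD1 in C42B (median 0.032), and 12 rose and 1 fell in LNCaP (median 0.20). The shares were 72.7%, 36.4% and 59.1%, beside 32.7%, 18.0% and 25.9% of all genes. Many of them are also androgen targets. With DHT the kinase SGK1 rose by 3.75 ± 0.06 and the zinc finger factor ZBTB16 by 2.23 ± 0.06. TSC22D3, the glucocorticoid-induced leucine zipper, fell with DHT by 0.75 ± 0.04, while with siLSD1 it rose by 0.75 ± 0.08 in LNCaP and differed by 0.051 ± 0.048 in C42B. The difference of its siLSD1 effect between the lines passed (−0.70 ± 0.10, limma adjusted p = 6.0e-04), as did that of the cell cycle inhibitor CDKN1C (−0.63 ± 0.14, adjusted p = 0.010). In C42B the siLSD1 rises were led by CDKN1A (0.46 ± 0.06), KLF9 (0.42 ± 0.09) and SGK1 (0.29 ± 0.06), and in LNCaP TSC22D3 was followed by ERRFI1 (0.60 ± 0.07) and the sodium channel subunit SCNN1A (0.56 ± 0.06).

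Of 19 measured estrogen and progesterone responsive genes, 2 rose and 5 fell with DHT (median −0.0011), 6 rose and 2 fell with siLSD1 in C42B (median 0.15), and 5 rose and 2 fell in LNCaP (median 0.046). The shares were 36.8%, 42.1% and 36.8%, beside 32.7%, 18.0% and 25.9% of all genes. GREB1, a cofactor gene that estrogen and androgen both induce, rose by 2.58 ± 0.09 with DHT (limma adjusted p = 6.1e-08). With siLSD1 GREB1 rose by 1.27 ± 0.21 in C42B and 0.61 ± 0.09 in LNCaP. TFF1, a trefoil peptide and classical estrogen target, rose with siLSD1 by 0.99 ± 0.06 in C42B and 1.94 ± 0.08 in LNCaP, a difference between the lines that passed (−0.94 ± 0.10, adjusted p = 1.5e-04). With DHT TFF1 fell by 0.25 ± 0.07. The transcription factor MYB fell by 1.56 ± 0.09 with DHT, by 0.68 ± 0.12 with siLSD1 in C42B and, to a dim mean, by at least 0.70 in LNCaP. The potassium channel KCNK5 fell by 1.45 ± 0.08 with DHT, and its siLSD1 effect differed between the lines by 0.42 ± 0.11 (adjusted p = 0.025).

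Set among the 34 other nuclear receptors measured, PGR had the largest fall with DHT. Of 31 of these outside the estrogen-related group, 6 were higher and 12 lower with DHT (median −0.012), 3 and 6 with siLSD1 in C42B (median −0.063), and 4 and 3 in LNCaP (median −0.039). The shares were 58.1%, 29.0% and 22.6%, beside 32.7%, 18.0% and 25.9% of all genes. The orphan receptor NR2F1 fell with DHT to a dim mean by at least 0.16, the clock repressor NR1D2 fell by 0.80 ± 0.10 and the retinoic acid receptor RARB rose by 1.01 ± 0.13. The thyroid hormone receptor THRB fell with siLSD1 by 0.61 ± 0.07 in C42B and 1.12 ± 0.06 in LNCaP. In C42B the oxysterol receptor NR1H3 fell by 0.53 ± 0.06 and PPARG rose by 0.50 ± 0.08, and in LNCaP PPARA rose by 1.03 ± 0.07 and THRA by 0.61 ± 0.09. The siLSD1 effect differed between the lines for PPARA (−0.97 ± 0.10), NR1D2 (0.66 ± 0.13) and THRA (−0.54 ± 0.11), with limma adjusted p of 8.0e-05, 0.0074 and 0.0070.

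The estrogen-related receptors, close relatives of ESR1 and ESR2 that have no known steroid ligand, were read by 3 genes. With siLSD1 in C42B 2 were higher, ESRRA (0.21 ± 0.06, limma adjusted p = 0.043) and the dim ESRRG (0.25 ± 0.06, adjusted p = 0.028), with a median of 0.21. In LNCaP 1 was higher (median 0.017): ESRRG rose from a dim mean by at least 0.73. The siLSD1 effect on ESRRG differed between the lines by −1.11 ± 0.17 (limma adjusted p = 0.0015). ESRRG was dim in 3 of the 4 siRNA groups, so the size of this difference is uncertain. With DHT 1 was lower, ESRRG, dim in both groups (−0.51 ± 0.14, adjusted p = 0.017), and the median was −0.073. With 3 genes the shares, 33.3%, 66.7% and 33.3% beside 32.7%, 18.0% and 25.9% of all genes, move by a gene at a time.

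**Figure D5:**
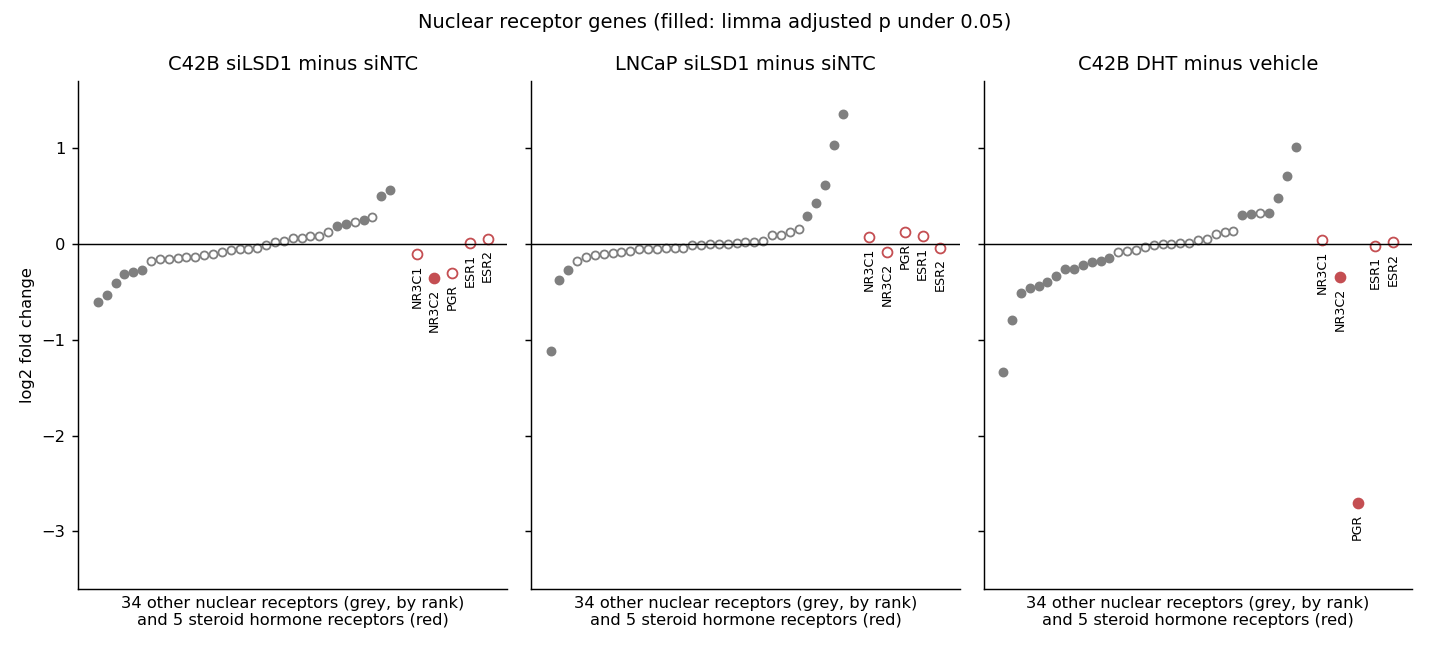
Log2 fold change (y axis) of 34 other nuclear receptor genes (grey, ordered by value within each panel) and the 5 steroid hormone receptors (red, named) in the 3 comparisons; filled points have a limma adjusted p under 0.05. PGR at −2.70 lies below all other nuclear receptors with DHT, while with siLSD1 the 5 members lie within the range of the others.

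Markers of other cell types were followed beside the fall of PGR with DHT. Of 14 stromal, endothelial and leukocyte markers 1 was lower and none higher, the collagen COL3A1, which fell to a dim mean by at least 1.20. That is 7.14% of the 14 markers, where 32.7% of all genes passed. The summed intensity of these markers was 1475 to 1539 with DHT and 1508 to 1731 with vehicle, so the groups overlapped. Of 4 basal prostate markers 1 was higher and 1 lower, DST (−0.42 ± 0.05), or 50% beside the same 32.7%. The part of such cells in the change of PGR was not tested. With siLSD1 in LNCaP 2 of the 14 were lower, COL3A1 (−0.77 ± 0.13) and ACTA2 (−0.66 ± 0.06), and none in C42B. These are 14.3% and 0% of the 14, beside 25.9% and 18.0% of all genes.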

How the data were processed

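The deposited table holds 1 intensity per probe set and array on a linear scale. Per the submitters' processing notes, the authors used affy for RMA, with no version or setting stated there. Which array was labelled with which kit is not given, so kit was not a term. Here log2 was taken, and 62 control probe sets, 1801 that name several genes and 11721 that name none in the 2016 annotation were left out. Of the 41091 probe sets kept, 41037 matched RefSeq by gene ID. Each comparison was fitted on its own arrays with lmFit and eBayes of limma 3.58.1 (R 4.3.3), two-sided, with Benjamini-Hochberg adjustment over all 19775 genes and a threshold of 0.05. The line difference used the 12 siRNA arrays. Permutation tests used scipy 1.17.1, tables and figures Python 3.11.15 and matplotlib 3.10.9. The fit was tested on simulated data. The SD of log2 differences between arrays of a group was 0.133 to 0.212.

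The members, lists and tests were chosen with earlier results of these data known. Text names the 5 members and KDM1A, up to 3 bright genes past the threshold per list and comparison, and the 3 most like and 1 least like gene per member. FKBP5, HSD11B2, TSC22D3, GPER1, TFF1 and ESRRG were also given where they fall outside that rule, after their values were seen. Lists are described by counts and medians and had no set test. Alternatives were the mean of probe sets, every probe set, quantile normalization, a replicate block, bright genes only, centring on medians, a trended robust variance, and leaving out each array.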

Additional observations from a re-analysis of the deposited data

Results flagged for a closer look

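The effect of siLSD1 on PGR differed between the lines by −0.43 (log2; adjusted p = 0.046 in limma), being −0.31 in C42B and 0.13 in LNCaP. PGR was dim in LNCaP, which limits any fall that could be seen there, and the medium differed with the line. The call was not stable: leaving out most single arrays ended it. Among all probe sets 228554_at did not pass (limma adjusted p = 0.058), and 208305_at gave −0.20 (adjusted p = 0.48). Single arrays stood far from the other 3 of their group in 2 of 46 cases examined (23 probe sets in each of the 2 groups of 4 arrays), where chance gives about 1 in 20. The ESR1 probe set 211234_x_at read 6.99 on its highest vehicle array, and the gap below it took up 0.901 of the range of the group. The dim ESR1 probe set 217163_at read 5.86 on its highest DHT array (0.842 of the range).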

How the results depend on the processing

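The fall of PGR with DHT and the falls of NR3C2 with DHT and with siLSD1 in C42B kept their direction and their side of the threshold under every alternative run. PGR with siLSD1 in C42B (−0.31) also passed with bright genes only, with a trended robust variance and with the replicate number as a block (limma adjusted p = 0.047). The block changed no other call on a member. Same-numbered arrays correlated between −0.096 and 0.20 in their deviations from the group means over all genes. Such weak values cannot show whether the numbers pair the arrays. In C42B with siLSD1 the block lowered the SE for NR3C1 from 0.14 to 0.052 and for PGR from 0.097 to 0.072. It raised the SE for NR3C2 from 0.067 to 0.071 and for ESR1 from 0.050 to 0.056. The line difference of NR3C2 passed at −0.28 with bright genes only, the trended robust variance and the mean of all probe sets, and at −0.30 with quantile normalization. It did not pass with median centring (−0.24, limma adjusted p = 0.13), the replicate block (0.10) or every probe set tested (0.079); without single arrays it was −0.33 to −0.21 and passed in 1 of 12 cases, without siNTC replicate 3 of C42B. The line difference of PGR did not pass at −0.43 with the trended robust variance or with 228554_at among all probe sets, at −0.40 with median centring, at −0.32 with the mean of probe sets, or at −0.20 with 208305_at; without single arrays it was −0.51 to −0.36. NR3C1 in LNCaP passed at 0.43 with 201865_x_at and 0.36 with 211671_s_at, and at 0.20 without siNTC replicate 1 (limma adjusted p = 0.049).

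The other changes on members are sign turns of values that did not pass in either setting. Quantile normalization gave ESR1 −0.00063 with siLSD1 in C42B and 0.0065 with DHT. The mean of all probe sets gave ESR2 −0.082 (C42B), 0.024 (LNCaP), −0.0037 (DHT) and −0.11 (line difference), and ESR1 0.12 (DHT) and 0.054 (line difference). Single probe sets turned the sign as follows. With siLSD1 in C42B they read 0.0053 and 0.058 for NR3C1, −0.025 and −0.16 for ESR1, and −0.31, −0.030, −0.051, −0.072 and −0.089 for ESR2. In LNCaP they read −0.040 for PGR, −0.028, −0.080, −0.18 and −0.011 for ESR1, and 0.00024, 0.035, 0.11 and 0.18 for ESR2. With DHT they read −0.028, −0.080 and −0.032 for NR3C1, 0.16, 0.10, 0.19, 0.091, 0.049, 0.011, 0.19 and 0.26 for ESR1, and −0.14 and −0.083 for ESR2. For the line difference they read 0.10, 0.31, 0.16, 0.012 and 0.19 for ESR1, and −0.17, −0.030, −0.086, −0.18 and −0.27 for ESR2. The cause was not tested.

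Without single arrays, in C42B with siLSD1, NR3C1 ranged from −0.22 to 0.0049, ESR1 from −0.020 to 0.026 and ESR2 from −0.019 to 0.13. In LNCaP NR3C1 ranged from 0.0031 to 0.20 and ESR2 from −0.13 to 0.091. With DHT NR3C1 ranged from −0.038 to 0.11, ESR1 from −0.062 to 0.067 and ESR2 from −0.014 to 0.050, and the line difference of ESR2 from −0.035 to 0.19. The number of genes that passed with siLSD1 in C42B, 3569, ranged from 1907 to 3962 without single arrays, where fewer arrays were fitted; all other such counts stayed within 1.5 times. PGR and NR3C1 in LNCaP have no value with bright genes only, since they are dim there. Most probe sets of ESR1, ESR2 and NR3C1 were dim in some or all groups, which limits their readings. No background level was measured.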
